A study of Homo sapiens with 17 samples.

Results

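Intragenic H2A.Z regions away from gene ends are stretches bound by tagged H2A.Z that lay wholly inside the body of a protein-coding gene and at least 10 kb from every annotated end of a protein-coding gene. To find them, each of 8 Flag ChIP-seq peak lists was shortened to the length of the shortest, keeping the intervals with the largest −log10 p. The 8 lists were merged into 47119 regions, and the regions that met both conditions on GRCh38 were kept. This gave 7586 regions, 16.1% of all, in 2984 host genes. For comparison, 15275 regions lay within 1 kb of a gene end and 14112 lay outside genes and at least 10 kb from any gene end. Beyond the −log10 p that set the length of each list, no measured value entered the choice.

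The cells were Caco-2/15, a colon cancer cell line whose cells come to resemble enterocytes, the absorptive cells of the gut, once they have been confluent for some days. Per the labels, the genotype was either heterozygous H2AFZ-Flag (tagged H2A.Z.1) or heterozygous H2AFV-Flag (tagged H2A.Z.2), so each line also carried untagged H2A.Z. Each line was taken subconfluent (Sc) or after 7 days of postconfluence (Pc). The precipitations used 4 µg of Flag antibody with 10 ng of spike-in chromatin, and reads were 85 bp long. There were 2 samples (Exp1 and Exp2) in each of the 4 groups, 8 of the 17 samples the labels name. The labels speak of duplicates and do not say that these came from separate cultures, so p-values measure only the spread between these samples, which may be technical. Interval names begin with a code that is taken here to mark a sequencing run, which was not checked. Both H2A.Z.1 lists of Exp1 had 1 code, both H2A.Z.2 lists of Exp1 another, and all 4 lists of Exp2 a further one. If the code does mark a run, isoform and run cannot be told apart within Exp1, whereas each Pc list shares its run with the Sc list of the same isoform and experiment. Peak lists give no read depth. The longest deposited list held 79425 intervals. Of 12 marker genes of intestinal epithelium, 5 (CDH1, CDX1, CDX2, HNF4A and ELF3) had an interval at a gene end in all 8 lists and 2 (KRT20 and CDH17) in none. Of 12 markers of other cell types, 1 (COL1A1) had one in all 8 and 6 in none. Between these ends the sets overlapped. Of the intestinal markers VIL1 had one in 6 lists, EPCAM in 5, and KRT8, KRT18 and KRT19 in 4. Of the others PECAM1 had one in 7, CD3E and PDGFRB in 6, SYP in 4 and RBFOX3 in 1.

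H2A.Z is a variant of histone H2A that is loaded into nucleosomes by ATP-dependent remodellers and removed by others. It is best known at the nucleosomes that flank active or poised transcription start sites, and it also occurs at enhancers and other regulatory elements inside and between genes. The isoforms H2A.Z.1 and H2A.Z.2 are encoded by separate genes and differ by a few amino acids. Many genes have more than 1 promoter, and a promoter that lies inside the body of the longest transcript starts a shorter one. CpG islands, stretches where the dinucleotide CG is not depleted, mark a large share of human promoters.

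Many of the regions found in all 8 lists lay at a transcript start inside the host gene, so the start windows that carry the result are shown first. Each is a window of RefSeq (GRCh38.p14), from 250 bases before to 50 bases after a listed transcript start, written 5′ to 3′ on the strand of the transcript, with every CG dinucleotide in capitals. The first set holds the starts in the 3 strongest regions at an internal coding start: ATP2C1, a Golgi calcium and manganese pump (chr3:130893834-130894133, plus strand), ZNF343, a zinc finger protein (chr20:2508866-2509165, minus strand), and TNRC6A, a scaffold of microRNA silencing (chr16:24729401-24729700, plus strand).
ATP2C1: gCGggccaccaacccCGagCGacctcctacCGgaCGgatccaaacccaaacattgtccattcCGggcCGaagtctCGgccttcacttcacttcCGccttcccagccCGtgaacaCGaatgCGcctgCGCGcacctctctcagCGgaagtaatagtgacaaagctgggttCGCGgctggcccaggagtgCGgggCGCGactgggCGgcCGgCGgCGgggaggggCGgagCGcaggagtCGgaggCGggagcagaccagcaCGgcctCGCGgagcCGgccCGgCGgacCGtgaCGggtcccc
ZNF343: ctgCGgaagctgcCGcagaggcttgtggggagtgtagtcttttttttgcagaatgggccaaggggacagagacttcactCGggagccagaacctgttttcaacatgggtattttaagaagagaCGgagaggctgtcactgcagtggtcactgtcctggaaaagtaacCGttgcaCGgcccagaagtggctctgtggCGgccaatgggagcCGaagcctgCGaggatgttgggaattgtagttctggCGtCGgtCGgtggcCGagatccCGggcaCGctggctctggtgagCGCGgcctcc
TNRC6A: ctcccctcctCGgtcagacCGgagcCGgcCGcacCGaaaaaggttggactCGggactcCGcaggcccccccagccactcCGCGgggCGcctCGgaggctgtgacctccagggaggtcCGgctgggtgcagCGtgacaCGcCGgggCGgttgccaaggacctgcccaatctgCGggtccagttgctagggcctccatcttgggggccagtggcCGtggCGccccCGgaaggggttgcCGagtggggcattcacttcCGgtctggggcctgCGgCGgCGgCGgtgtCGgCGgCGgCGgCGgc
These windows hold 36, 17 and 31 CG dinucleotides, and their observed over expected CpG ratios are 0.98, 0.70 and 0.77. The strongest region at a lncRNA start alone lay in HECW1, an E3 ubiquitin ligase gene, at the start of LOC124901619 (chr7:43249249-43249548, minus strand). Its window holds 11 CG dinucleotides (ratio 0.56).
LOC124901619: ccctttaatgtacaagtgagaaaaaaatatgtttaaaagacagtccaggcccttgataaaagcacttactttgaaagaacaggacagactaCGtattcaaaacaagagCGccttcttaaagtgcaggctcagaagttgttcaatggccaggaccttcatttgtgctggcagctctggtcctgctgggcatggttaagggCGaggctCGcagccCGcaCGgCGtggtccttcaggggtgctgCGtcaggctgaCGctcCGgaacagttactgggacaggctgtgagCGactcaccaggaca

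The next pair shows a start that all 8 lists held beside one that none held in the same gene, PRKAR1A, a regulatory subunit of protein kinase A. The starts are 3015 bp apart, at chr17:68512129-68512428 and chr17:68515144-68515443, both on the plus strand. The window held by all 8 lists has 21 CG dinucleotides and 61.0% G or C, and the one held by none has 5 and 40.0%.
PRKAR1A, start in all 8 lists: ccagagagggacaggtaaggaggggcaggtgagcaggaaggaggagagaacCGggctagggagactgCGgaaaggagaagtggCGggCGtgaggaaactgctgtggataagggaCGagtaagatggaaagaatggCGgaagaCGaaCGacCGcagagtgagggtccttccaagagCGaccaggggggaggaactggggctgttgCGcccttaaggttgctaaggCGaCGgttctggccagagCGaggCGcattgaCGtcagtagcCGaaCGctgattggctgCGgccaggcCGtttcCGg
PRKAR1A, start in no list: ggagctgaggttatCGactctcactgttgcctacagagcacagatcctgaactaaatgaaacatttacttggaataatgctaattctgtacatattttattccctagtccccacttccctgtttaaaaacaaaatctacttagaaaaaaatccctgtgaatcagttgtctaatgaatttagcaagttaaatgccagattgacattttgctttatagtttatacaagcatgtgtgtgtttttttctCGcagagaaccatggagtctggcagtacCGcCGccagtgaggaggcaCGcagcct

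The last set holds starts in regions that were listed on 1 side of a comparison only. Each is from the strongest region at a coding start in its set. RUFY4, an adaptor with a FYVE domain, is from the regions listed in postconfluent cells only (chr2:218069003-218069302, plus strand). SPATA13 is from those in subconfluent cells only (chr13:24270500-24270799, plus strand). PDE4DIP, a protein of centrosome and Golgi, is from those in H2A.Z.1 lists only (chr1:148951888-148952187, plus strand). Most regions of these sets had no listed start (45 of 52, 20 of 24 and 7 of 9), so the windows do not represent them. The 3 windows hold 6, 8 and 25 CG dinucleotides.
RUFY4: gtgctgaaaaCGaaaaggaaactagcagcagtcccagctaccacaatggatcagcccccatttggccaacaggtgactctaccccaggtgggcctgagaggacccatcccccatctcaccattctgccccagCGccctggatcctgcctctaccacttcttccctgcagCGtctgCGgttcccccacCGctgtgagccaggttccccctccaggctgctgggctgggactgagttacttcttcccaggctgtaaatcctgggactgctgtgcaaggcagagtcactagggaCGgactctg
SPATA13: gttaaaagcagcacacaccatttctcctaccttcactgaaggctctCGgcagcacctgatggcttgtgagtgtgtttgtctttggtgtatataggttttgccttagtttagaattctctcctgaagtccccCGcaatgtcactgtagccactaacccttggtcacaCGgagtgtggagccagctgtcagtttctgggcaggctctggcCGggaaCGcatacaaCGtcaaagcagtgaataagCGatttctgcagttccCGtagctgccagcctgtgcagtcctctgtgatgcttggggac
PDE4DIP: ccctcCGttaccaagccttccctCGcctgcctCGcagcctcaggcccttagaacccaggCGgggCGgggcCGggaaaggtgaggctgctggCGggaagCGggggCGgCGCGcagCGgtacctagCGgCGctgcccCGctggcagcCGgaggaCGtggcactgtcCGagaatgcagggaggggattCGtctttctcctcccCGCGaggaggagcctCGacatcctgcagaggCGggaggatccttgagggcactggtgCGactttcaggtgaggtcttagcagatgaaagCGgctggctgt

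Most intragenic regions were found in few lists. In 1 list only were 2784 regions (36.7%), and in all 8 lists were 1535 (20.2%). Regions within 1 kb of a gene end had the opposite pattern, with 8.63% in 1 list and 68.1% in all 8. Regions outside genes resembled the intragenic ones in these shares, with 36.8% in 1 list and 18.0% in all 8. The intragenic regions in 1 list had a median width of 326 bp and those in all 8 a median of 1238 bp. The share found in all 8 lists depended on list length: it was 9.30% with whole lists, where 23167 regions met the conditions, and 23.7% with lists 50% as long as the main ones, where 2325 did.

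**Figure D1:**
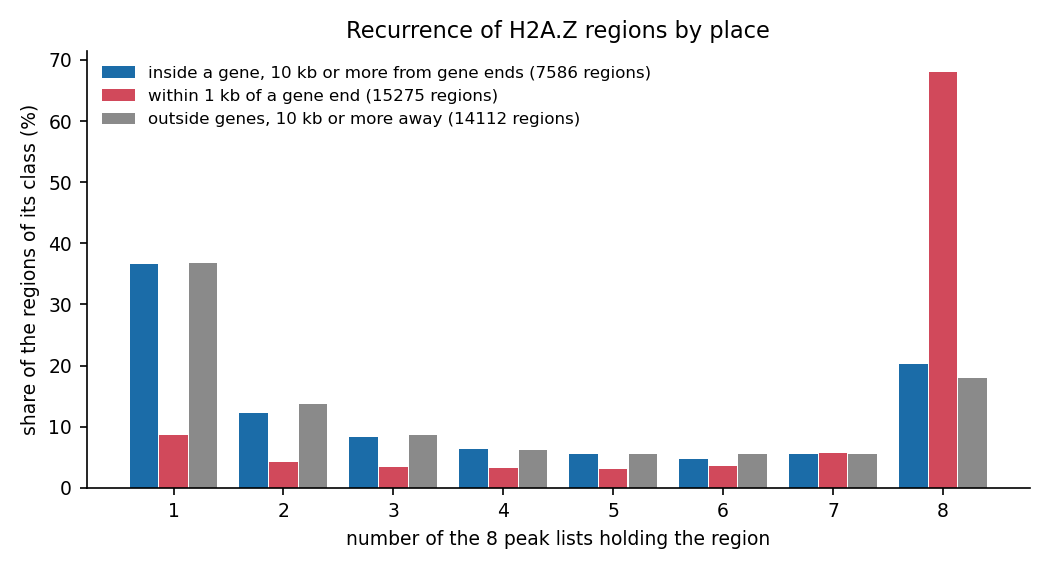
Share of regions (y axis, %) against the number of the 8 peak lists that hold them (x axis), for intragenic regions at least 10 kb from gene ends, regions within 1 kb of a gene end and regions outside genes. Intragenic regions peak at 1 list (36.7%) with a second, lower peak at all 8 (20.2%), whereas 68.1% of gene-end regions were in all 8.

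Intragenic regions were weaker than gene-end regions in every list. Strength is given here as the percentile of an interval's deposited fold enrichment within its own shortened list. The median percentile of intragenic intervals was 35.2 and 34.9 in the H2A.Z.1 Sc lists (Exp1 and Exp2), 35.3 and 36.4 in the H2A.Z.1 Pc lists, 37.1 and 36.6 in the H2A.Z.2 Sc lists, and 36.3 and 35.4 in the H2A.Z.2 Pc lists. The 8 values span 34.9 to 37.1, and those of gene-end intervals span 63.2 to 67.8, so the ranges do not overlap. Intervals outside genes had medians of 30.7 to 34.5, below the intragenic median in each list. Among the top 10% of each list by fold stood 3.52% to 4.81% of intragenic intervals.

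The regions in all 8 lists were strongest where they lay at a listed transcript start. A start within 1 kb of the region counted, and starts were those of protein-coding and lncRNA transcripts in RefSeq, which are annotations and not measurements of transcription in these cells. The share of intragenic regions at a coding start was 3.84% among those in 1 list, 8.02% among those in 4 lists, 15.3% among those in 7 and 33.9% (520 of 1535) among those in all 8. For lncRNA starts the share was 2.59% among regions in 1 list and 10.6% among those in all 8. Wider regions reach more starts, so the count was repeated with the midpoint of the region, and gave 3.52% in 1 list and 31.9% in all 8. Looked at the other way, 58.0% of the 896 regions at a coding start were in all 8 lists, against 32.5% of the 206 at a lncRNA start only and 14.6% of the 6484 with no listed start.

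**Figure D2:**
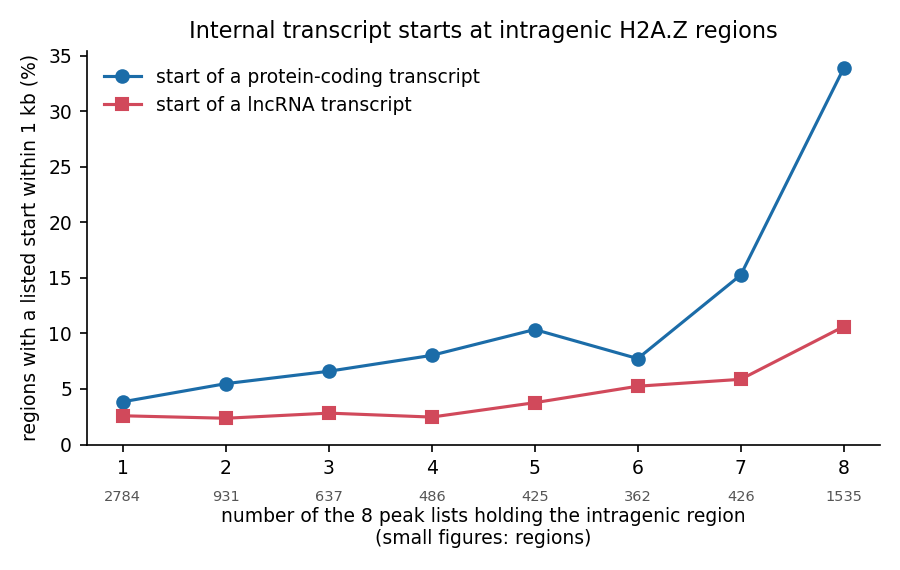
Share of intragenic regions with a listed transcript start within 1 kb (y axis, %) against the number of lists that hold the region (x axis, with the number of regions in small figures). Coding starts go from 3.84% of the regions in 1 list to 33.9% of those in all 8, with a lower value in 6 lists (7.73%) than in 5 (10.4%); lncRNA starts go from 2.59% to 10.6%.

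Among the 1535 regions in all 8 lists, the 520 at a coding start had a median percentile of 68.5 (quartiles 56.8 and 81.2). The 67 at a lncRNA start only had a median of 63.3. The 948 with no listed start had a median of 51.1 (quartiles 38.8 and 67.2). Gene-end regions in all 8 lists, 10403 in number, had a median of 74.6 (quartiles 60.2 and 85.7). The order of these medians was the same in each of the 8 lists taken singly. Above the 90th percentile stood 49 of the 520 regions at a coding start and 35 of the 948 with no listed start.

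The strongest intragenic regions stood near the top of the lists. The 10 of highest mean percentile had means of 97.7 to 99.0, and their deposited fold enrichments lay between 11.2 and 25.03. First was the HECW1 region (chr7:43248755-43249577), whose percentiles were 98.6 and 99.96 in H2A.Z.1 Sc, 99.4 and 95.9 in H2A.Z.1 Pc, 99.8 and 99.4 in H2A.Z.2 Sc, and 99.9 and 99.0 in H2A.Z.2 Pc. The ATP2C1 region (chr3:130893164-130894998) had 97.5 and 97.4, 99.4 and 99.8, 97.9 and 99.4, and 99.8 and 99.6 in the same order. In both genes every list placed the region in the top 5% of its intervals.

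The ZNF343 region (chr20:2507911-2509823) had percentiles of 97.8 to 99.7 over the 8 lists. The TNRC6A region (chr16:24728942-24730508) had 95.6 to 99.95, with the lowest value in H2A.Z.2 Sc Exp2. The others at a coding start of the host were GNB5, a G protein beta subunit, GPD2, the mitochondrial glycerol-3-phosphate dehydrogenase, and PRKAR1A. The GNB5 region also held the start of the lncRNA CERNA1, and the RAB33B region that of RAB33B-AS1 alone. The 2 others, in TP53BP1, a DNA double-strand break repair protein, and SOX6, an HMG-box transcription factor, had no listed start within 1 kb. Their mean percentiles were 98.4 and 98.3.

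Starts inside genes were also examined from the side of the annotation. RefSeq listed 2663 coding transcript starts at least 10 kb from every gene end, in 1632 genes. Of these, 660 (24.8%, in 462 genes) lay within 1 kb of an H2A.Z region of all 8 lists, 299 within 1 kb of a region of 1 to 7 lists, and 1704 near none. The 300-base windows of the 660 had a median of 66.0% G or C and a median CpG ratio of 0.79 (quartiles 0.60 and 0.92). Those of the 1704 had 47.3% and 0.28 (quartiles 0.15 and 0.45). Of 867 internal starts with a CpG ratio above 0.6, 492 (56.7%) were held by all 8 lists, and of the 1796 with a lower ratio 168 (9.35%) were. Starts of 1 gene share their region and are not independent of each other.

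**Figure D3:**
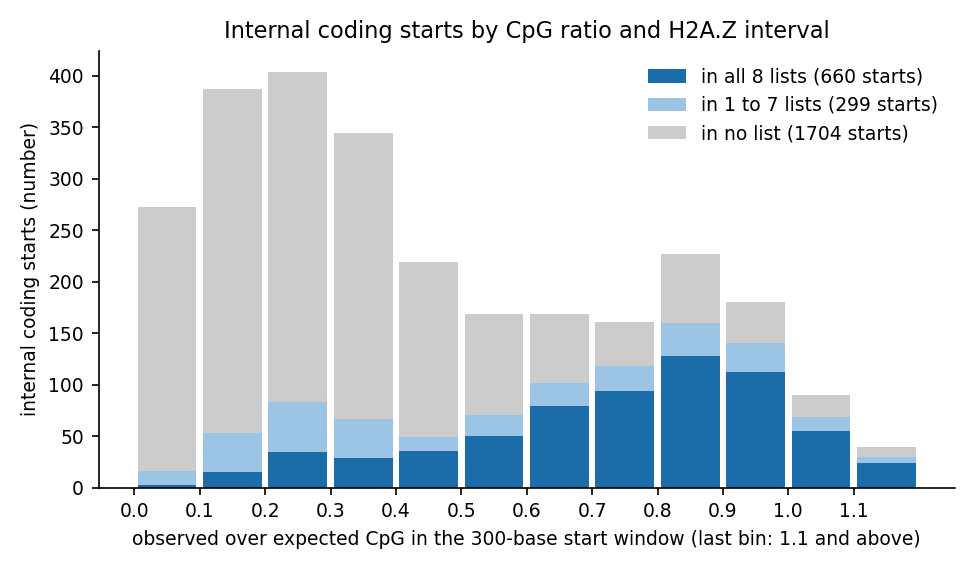
Number of internal coding starts (y axis) by the observed over expected CpG ratio of the 300-base start window (x axis), coloured by whether all 8, 1 to 7 or none of the peak lists held the start. Starts above a ratio of 0.6 were held by all 8 lists in 56.7% of cases and those up to 0.6 in 9.35%.

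Short motifs were counted on both strands of the windows. GGGCGG, the box bound by SP1 family factors, was present in 66.4% of the windows held by all 8 lists, 44.5% of those held by 1 to 7 and 19.4% of those held by none, against 45.0% of all 35116 coding and lncRNA windows in the table. The motif contains CG, so it follows the CpG content. CCGGAA, the core of ETS sites, also contains CG and was present in 19.4%, 13.4% and 7.04%, against 17.2% of all windows. TATAAA was present in 5.91%, 8.70% and 17.0%, against 11.5% of all windows. The CCAAT box was present in 32.0%, 31.4% and 34.0%, against 34.6%. CACGTG, an E-box, was present in 8.03%, 5.69% and 4.28% (7.26% of all windows), and TGANTCA, the AP-1 motif, in 6.06%, 9.70% and 12.2% (7.71% of all windows). A match is a run of letters and not a bound site.

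Regions in all 8 lists lay more often in the part of the host nearest its start. The stretch of each host at least 10 kb from both its ends was divided into 3 equal parts along the direction of transcription, for the regions with 1 host whose strand was known from the start table. Of 1245 such regions in all 8 lists, 41.3% lay in the part nearest the start, 33.3% in the middle part and 25.5% in the last. For the 507 at a coding start the shares were 46.9%, 36.7% and 16.4%, and for the 679 with no listed start 37.3%, 31.1% and 31.7%. Among regions with 1 host, the strand was known for all 507 at a coding start. It was known for only 679 of 940 with no listed start, so regions at a coding start weigh more in the 1245. Regions in 1 list were spread as 34.6%, 29.8% and 35.5%. The median distance of all 7586 regions from the nearest gene end was 33.5 kb, and the largest was 983 kb. Exons and introns are not used here.

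Of 10809 protein-coding genes long enough to hold such a region, 2984 (27.6%) were hosts and 1128 (10.4%) were hosts of a region found in all 8 lists. Hosts were longer, with a median length of 108 kb against 49.0 kb for genes with no region. The share of hosts was 12.1% among genes under 50 kb and 55.4% among genes over 200 kb. Per Mb of sequence at least 10 kb from gene ends, the density went the other way, with 14.1 regions in genes under 50 kb and 5.38 in genes over 200 kb, against 7.92 over all. The annotated start of the gene itself was examined where the strand was known from the start table. It had an interval in all 8 lists in 52.2% of 2403 hosts and 65.3% of 6376 genes without a region. In genes over 200 kb these shares were 49.2% of 642 and 47.4% of 517.

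The 10 hosts with the most regions were 142 to 1123 kb long, against a median of 108 kb for all hosts. The mean percentiles of their regions lay between 8.80 and 33.6. For comparison, the medians of all intragenic regions by chromosome lay between 11.2 and 38.9. A single region was found in 1436 hosts, and 94 hosts had 10 or more, 1343 regions in all. RANBP2, a nuclear pore protein whose annotated body here spans 1123 kb and also covers SH3RF3, had 49 regions, 8 of them in all 8 lists, with a mean percentile of 19.7. CACNA1C, a subunit of the L-type calcium channel, had 40 (7 in all 8 lists, mean percentile 14.7). KCNQ1, a potassium channel of epithelia and heart, had 31 (6 in all 8, mean 24.4), and SYN3, a synapsin, had 29 (11 in all 8, mean 33.0). DSCAML1, GSE1, RPS6KC1 and SLIT3 had 25 each, NOL4L 23 and FRMD4A 21. NOL4L had the highest density of the 10, 188 per Mb. The lowest mean percentile of the 10 was that of DSCAML1, at 8.80, although its regions had a mean percentile of 25.2 by −log10 p.

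Gene lists for intestinal and signalling functions were hosts more often than the 27.6% of all genes with room, as were lists of genes of other tissues, and their genes were also longer than the median of 59.5 kb for all such genes. Per Mb the lists lay on both sides of the 7.92 regions of all genes. Counts are of hosts among members with room. Among intestinal transcription factors and nuclear receptors 19 of 35 were hosts (54.3%), with 7.45 regions per Mb, below that of all genes, and a median gene length of 117 kb. NCOA2, a nuclear receptor coactivator, had a region of mean percentile 89.96 in all 8 lists, lowest in H2A.Z.2 Sc Exp2 (66.3) and highest in H2A.Z.1 Pc Exp2 (99.1). ESRRG, an orphan nuclear receptor, had one at a coding start with a mean of 86.5 and a range of 73.6 to 98.0. Among Wnt pathway genes 17 of 33 were hosts (51.5%, 8.73 per Mb), led by PRICKLE1 (mean 81.9, range 66.2 to 94.1, at a coding start) and BCL9, a coactivator of beta-catenin (mean 81.1, range 66.1 to 93.6).

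Among genes of epithelial junctions, polarity and microvilli 14 of 38 were hosts (36.8%), with 7.79 regions per Mb, also below that of all genes. TJP1, the tight junction scaffold ZO-1, had 15 regions, 3 of them in all 8 lists, and the strongest (chr15:29921031-29922186) had a mean percentile of 82.1 and a range of 69.3 to 92.0. SHROOM3, an organiser of apical actin, had 8, the strongest with a mean of 76.8 and a range of 43.5 to 94.1. Among receptor tyrosine kinases 18 of 32 were hosts (56.2%, 9.34 per Mb), led by ERBB2 (mean 82.6, range 46.7 to 95.3) and RET (mean 66.8, range 45.5 to 81.1, at a coding start). Among TGF-beta, BMP and SMAD genes 15 of 33 were hosts (45.5%, 10.97 per Mb), led by ENG, a co-receptor (mean 81.7), and BMPR1B, a BMP receptor (mean 75.6).

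Among chromatin regulators 13 of 45 were hosts (28.9%, 4.15 per Mb), led by CHD7 (mean 75.3) and ARID1B (mean 73.8), both remodeller subunits. Among solute and drug transporters 23 of 44 were hosts (52.3%, 9.67 per Mb), led by the cholesterol exporter ABCG1 (mean 76.4) and the manganese exporter SLC30A10 (mean 66.7). The last 2 lists were taken as markers of other cell types. Among genes of neuronal adhesion and synapse 32 of 48 were hosts (66.7%), with a median length of 1052 kb and 3.14 regions per Mb, below the 7.92 of all genes, and AUTS2 and CNTNAP2 had regions of mean percentile 83.3 and 79.9. Among blood cell and fibroblast genes 20 of 36 were hosts (55.6%) with 18.1 regions per Mb. COL4A1 and COL4A2 held 17 each of the 101 regions of this list. Counting only regions in all 8 lists, there were 1.79 per Mb, against 1.60 over all genes. Hosts of such regions were 11.1% of the list, against 10.4% of all genes with room. RUNX1, a blood and epithelial transcription factor, led in strength with a mean percentile of 86.9, followed by COL4A1 with 55.3. A region in a gene is not a measure of its expression.

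Growth state was compared first by the share of each list that was intragenic. This share was 12.7% and 11.8% in H2A.Z.1 Sc (Exp1 and Exp2), 13.1% and 12.6% in H2A.Z.1 Pc, 12.3% and 11.1% in H2A.Z.2 Sc, and 12.5% and 11.8% in H2A.Z.2 Pc. The Pc list was the higher of its pair in 4 of 4 pairs, by 0.386, 0.739, 0.219 and 0.676 percentage points, while the values of the 2 states overlapped. The mean was 12.5% ± 0.556 in Pc and 11.98% ± 0.702 in Sc (SD, n = 4 each), a difference of 0.505 points that did not pass a 2-sided exact permutation test (p = 0.343, where the smallest p possible is 0.0286). With lists cut to cover an equal length of genome, which then differed in number of intervals, the difference turned to −0.899 points. The median percentile was 35.9 ± 0.565 in Pc and 36.0 ± 1.09 in Sc (exact permutation p = 0.886), and the median width 612 ± 95.4 bp and 544 ± 119 bp (SD, n = 4 each, exact permutation p = 0.457). Without H2A.Z.2 Sc Exp2, the shortest list, the state difference was 0.203 points in share and 12.5 bp in width. Both were the lowest values obtained by leaving out 1 list.

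More intragenic regions were listed in postconfluent cells only than in subconfluent cells only, and this order depended on how the lists were cut. The order was the same over all regions, with 231 and 110. Found in all 4 Pc lists and no Sc list were 52 regions (0.685% of the intragenic regions, against 0.49% of all 47119 regions), and in all 4 Sc lists and no Pc list 24 (0.316%, against 0.233% of all regions). With whole lists the counts were 114 and 11. Lists 50% as long gave 8 and 8, and lists cut to cover an equal length of genome gave 0 and 34. Lists of equal covered length were unequal in number of intervals: the longest held as many as the main lists and the shortest 14209. Lists of narrow intervals keep more of them there. Those of H2A.Z.2 Sc Exp2 were the narrowest, with a median of 474 bp against 664 to 873 bp in the other lists. How far this set the counts was not tested. Leaving out 1 list at a time gave 64 to 107 and 31 to 55. Without H2A.Z.2 Sc Exp2, the shortest list, the counts were 69 and 55. Absence from a list is absence from the intervals kept: in whole lists, the opposite state was empty for 9 of the 52 regions and 3 of the 24.

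The 5 strongest regions listed in Pc only were in ADAMTS13, the protease of von Willebrand factor, RUFY4, KIAA0513, PCGF5, a Polycomb protein, and XRCC2, a DNA repair protein. The ADAMTS13 region (chr9:133448120-133449354) had percentiles of 54.8 and 98.6 in H2A.Z.1 Pc and 82.3 and 63.1 in H2A.Z.2 Pc. RUFY4 (chr2:218068703-218069393, at a coding start) had 65.8 and 80.2, and 57.1 and 41.2. KIAA0513 (chr16:85047001-85047870) had 72.4 and 74.4, and 63.6 and 33.4. The whole lists held an interval there in 1 Sc list for ADAMTS13 and in 2 Sc lists for RUFY4 and KIAA0513. PCGF5 (chr10:91220078-91220562, at a coding start) had 57.8 and 34.4, and 63.0 and 69.2, and XRCC2 (chr7:152664351-152665278) 38.6 and 44.2, and 66.8 and 53.0.

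The 5 strongest in Sc only were in SPATA13, PRODH, the proline dehydrogenase, ARHGAP22, UNKL, and COL21A1, a collagen. The SPATA13 region (chr13:24270529-24270961, at a coding start) had percentiles of 53.3 and 79.6 in H2A.Z.1 Sc and 24.5 and 58.1 in H2A.Z.2 Sc, and 1 Pc list held it when lists were whole. PRODH (chr22:18925470-18926467) had 39.7 and 66.4, and 36.9 and 40.8, and all 4 whole Pc lists held it. ARHGAP22 (chr10:48523146-48523681) had 47.3 and 62.1, and 29.6 and 33.2. These 3 regions thus ranged from 24.5 to 79.6, and all 24 of the Sc set had a median percentile of 25.3 against 30.8 for the 52.

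**Figure D4:**
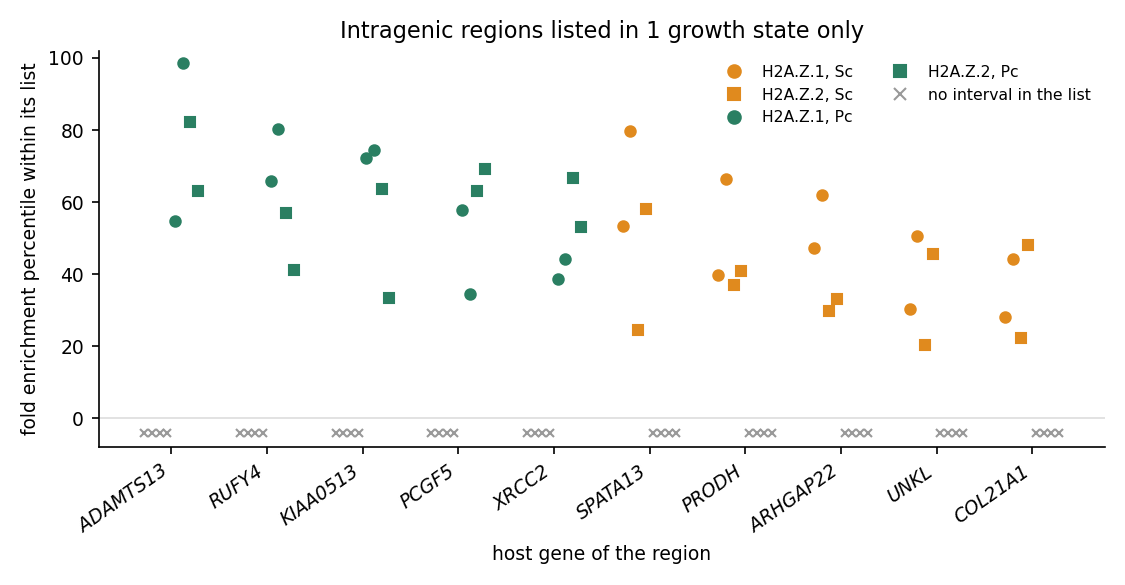
Percentile of fold enrichment within its list (y axis) of the 5 strongest intragenic regions listed in all 4 Pc lists and no Sc list and the 5 listed in all 4 Sc lists and no Pc list (x axis, by host gene). Each point is 1 of the 8 lists and a cross below 0 marks a list with no interval. ADAMTS13 has the widest spread of the 5 Pc regions shown, from 54.8 to 98.6.

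Regions whose opposite state was empty also in the whole lists were picked out after their values were seen. For Pc only they were those in KIF11, a mitotic kinesin (mean percentile 45.4), USP54, at a coding start (43.3), FANCA, of the Fanconi anaemia repair pathway (38.5), CSF1R, a receptor of myeloid cells (34.6), KNL1, a kinetochore scaffold (34.3), GRIP2 (32.9), TBC1D4 (30.2), ADA, the adenosine deaminase (23.7), and BCAS4 (2.24). For Sc only they were those in OVCH2 (31.5), TACC2, a centrosomal protein (16.3), and WWTR1, the Hippo pathway coactivator TAZ (11.2). TJP1 also held a region of the Sc set apart from its strongest region, with a mean percentile of 29.2. Of the 52 regions 6 lay at a coding start and 1 at a lncRNA start only, and of the 24 4 lay at a coding start.

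Within each isoform the Pc side was again the larger, as it was over all regions. For H2A.Z.1, 372 intragenic regions were in both Pc lists and neither Sc list (4.90%, against 3.69% of all regions) and 200 the other way (2.64%, against 2.04%). For H2A.Z.2 the counts were 220 (2.90%, against 2.24%) and 148 (1.95%, against 1.84%). With lists of equal covered length they were 46 and 183 for H2A.Z.1, and 27 and 166 for H2A.Z.2, so the order turned, and with lists 50% as long it turned for H2A.Z.2 (60 and 76) and not for H2A.Z.1 (97 and 80). The counts themselves were not tested. In the limma fit to fold ranks described below, the state contrast within H2A.Z.1 called 0 intragenic regions at an adjusted p of 0.05 (0% of all regions), with 87 at an unadjusted p under 0.05 (5.67%, against 6.66% of all regions). Within H2A.Z.2 it called 0 (0% of all), with 110 unadjusted (7.17%, against 6.18%). Regions of these sets were ordered by their mean percentile over every list that held them, lists of the other groups included. The strongest for H2A.Z.1 beside ADAMTS13 were in CCDC150 (74.6 and 59.5 in Pc) and NEK11, a cell cycle kinase (42.7 and 73.1), and on the Sc side, beside SPATA13, in PRDM16, a transcriptional regulator (55.7 and 70.3), and RABGAP1L (65.3 and 48.5). For H2A.Z.2 the Sc side was led by SPATA13, followed by ANK2, an ankyrin (76.4 and 51.1), whose region was in 6 lists. When lists were whole, both lists of the opposite state and same isoform held the NEK11 and PRDM16 regions, 1 held those of RABGAP1L and ANK2, and neither held that of CCDC150.

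No measure tested differed between the isoforms at the main settings. The intragenic share was 12.6% ± 0.529 of the H2A.Z.1 lists and 11.9% ± 0.639 of the H2A.Z.2 lists (SD, n = 4 each). The H2A.Z.2 list was the lower in 4 of 4 comparisons of the same state and experiment. The differences were −0.425 and −0.591 points in Exp1 (Sc and Pc), and −0.761 and −0.823 points in Exp2, whose lists share a run. The mean difference of −0.650 points did not pass the exact permutation test (p = 0.143), and with lists of equal covered length it was 0.943. The median percentile was 36.4 ± 0.708 for H2A.Z.2 and 35.5 ± 0.673 for H2A.Z.1 (exact permutation p = 0.114, SD, n = 4 each). The difference of 0.920 points became −1.47 with whole lists, and with a distance limit of 20 kb it was 1.09 and reached the smallest p possible (exact permutation p = 0.0286). Within Exp2 the difference was 1.75 points in Sc and −0.982 in Pc.

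By presence, 9 intragenic regions were in all 4 H2A.Z.1 lists and no H2A.Z.2 list (0.119%, against 0.0976% of all regions). In the opposite direction there were 0, against 7 of all regions (0.0149%). Leaving out 1 list at a time gave 14 to 26 and 1 to 7. The 5 strongest of the 9 were in PDE4DIP, TCF4, a basic helix-loop-helix factor, CCNJL, PDE8B, a cyclic AMP phosphodiesterase, and GNAO1, a G protein alpha subunit. The PDE4DIP region (chr1:148952005-148952295, at a coding start) had percentiles of 65.3 and 37.5 in Sc and 45.5 and 59.3 in Pc, and no whole H2A.Z.2 list held it. The TCF4 region (chr18:55588124-55588579, at a coding start) had 42.3 and 37.5, and 39.8 and 36.4.

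In pairs of groups the H2A.Z.1 side was the larger, as it was over all regions. In subconfluent cells 159 regions were in both H2A.Z.1 lists and no H2A.Z.2 list (2.10%, against 1.84% of all regions), and 63 the other way (0.830%, against 1.03%). In postconfluent cells there were 220 (2.90%, against 2.31%) and 67 (0.883%, against 0.679%). With lists of equal covered length the H2A.Z.2 side was the larger, at 118 against 10 in Sc and 106 against 24 in Pc. In the same order over all lists, the first on the H2A.Z.1 side were in PTPRM, a receptor phosphatase (60.9 and 41.4 in Sc), TXNL4A, a splicing factor (38.9 and 57.6), and FBXL5 with FAM200B (38.1 and 24.4). In Pc they were ANK2 (44.3 and 40.1), LOC112268076 (60.3 and 54.6) and SPMIP2 (45.5 and 59.1). On the H2A.Z.2 side they were PARM1 (53.8 and 62.9), ANO2 (28.7 and 21.5) and ZNF664-RFLNA (45.4 and 45.2) in Sc, and CHIC2 (67.1 and 58.2), RABGAP1L (61.5 and 43.7) and JAKMIP2 (49.8 and 50.7) in Pc. When lists were whole, both opposite lists held the ZNF664-RFLNA, CHIC2 and JAKMIP2 regions. Neither held those of PARM1, SPMIP2, and FBXL5 with FAM200B, and 1 held each of the others. The ANO2 region was low in the H2A.Z.2 Sc lists that placed it in its set, and took its place from the Pc lists, where it had 47.8 to 69.0.

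Among the 1535 regions in all 8 lists, strength was compared with limma on normal scores of the within-list ranks, over all 16878 regions of all 8 lists, with Benjamini-Hochberg adjustment. A score is in standard deviations of a normal distribution and says where a region stands among the others, not how much protein is bound. For growth state, 0 intragenic regions passed an adjusted p of 0.05 (0% of all regions did). At an unadjusted p under 0.05, 176 intragenic regions stood out (11.5%, against 9.9% of all regions). Of these, 75 were higher in Pc (4.89%, against 4.82% of all regions) and 101 lower (6.58%, against 5.08%). The median difference in score was −0.01 over the intragenic regions and −0.0015 over all.

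TRPV3, a cation channel gene, held the region with the lowest p among those higher in Pc (chr17:3529807-3531092). Its percentiles were 37.8 and 19.6 in H2A.Z.1 Sc and 39.1 and 22.7 in H2A.Z.2 Sc, and 85.2 and 79.2 in H2A.Z.1 Pc and 78.0 and 80.9 in H2A.Z.2 Pc. Every Pc value was above every Sc value, and the score differed by 1.76 (SE 0.323, limma adjusted p = 0.0779). IQSEC1, an activator of ARF6, held the one with the lowest p among those lower in Pc (chr3:12967944-12968432, at a coding start). It had 93.1 and 90.1, and 91.5 and 87.3, in Sc, against 50.6 and 67.9, and 56.3 and 51.5, in Pc. The states did not overlap there either, with a difference of −1.48 (SE 0.326, limma adjusted p = 0.153). When regions were ranked by −log10 p instead, 1 intragenic region, in NINJ2, passed, against 9 of all 16878 (0.0533%). The −log10 p had also set the length of each list, so this count is given as a description.

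For isoform 0 intragenic regions passed (0% of all), and 65 had an unadjusted p under 0.05 (4.23%, against 3.79% of all regions). Of these 40 were higher in H2A.Z.2 (2.61%, against 1.91% of all regions) and 25 lower (1.63%, against 1.88%). The nearest were in DLG5, a polarity scaffold, at 0.96 (SE 0.320, limma adjusted p = 0.998), and ZMYM2, a zinc finger protein, at −1.22 (SE 0.366, limma adjusted p = 0.998). In DLG5 the H2A.Z.1 Sc lists were low (22.4 and 18.9) and the other 6 lay between 60.3 and 80.7. In ZMYM2 the H2A.Z.1 lists lay between 78.2 and 87.4 and the H2A.Z.2 lists between 26.8 and 74.1.

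For the interaction, which asks whether the state difference differs between isoforms, 0 passed (0% of all). An unadjusted p under 0.05 was found for 51 (3.32%, against 3.08% of all regions). Of these 21 were higher (1.37%, against 1.55% of all regions) and 30 lower (1.95%, against 1.53%). PIK3R3, a regulatory subunit of PI3-kinase, had 93.7 and 94.8 in H2A.Z.1 Sc, 79.1 and 83.2 in H2A.Z.1 Pc, 88.1 and 63.8 in H2A.Z.2 Sc, and 95.2 and 97.7 in H2A.Z.2 Pc (interaction 2.09, SE 0.675). IQANK1 had 60.9 and 5.4, 54.8 and 98.7, 61.3 and 74.5, and 14.1 and 32.1 (interaction −3.37, SE 0.951). In IQANK1 the lists of 1 group also differed widely, most of all those of H2A.Z.1 Sc.

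Close to the distance limit, the regions just inside it were in XXYLT1 (10002 bp from a gene end, in 8 lists, mean percentile 46.4) and IGFBP5 (10011 bp, 4 lists, 20.2). The regions just outside were in CAPN2 (9998 bp, 7 lists, 12.9) and FER1L6 (9991 bp, 1 list, 21.2).

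Intragenic regions on chromosomes 11 and 20 had low fold enrichments for their −log10 p. The median over regions of the mean percentile by fold was 13.1 on chromosome 11 and 11.2 on chromosome 20, and 20.4 to 38.9 on the other chromosomes with at least 50 regions. By −log10 p the same medians were 22.2 and 20.1, and 20.2 to 29.5 elsewhere. In each of the 8 lists the median fold percentile of the intragenic intervals was lower on these chromosomes: 15.1 to 23.2 on chromosome 20 and 17.3 to 21.98 on chromosome 11, against 37.0 to 39.0 on all others. Mean percentiles under 10 were found for 41.9% of regions on chromosome 11 and 47.3% on chromosome 20, and for 17.0% of all. Chromosome 20 also had the highest density, 17.0 regions per Mb. Over regions of every kind the medians by fold were also lowest on these chromosomes, at 19.2 and 14.4 against 25.7 to 48.7 elsewhere. Gene-end regions there had medians of 59.7 and 57.9, within the range of the other chromosomes (54.1 to 73.9).

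**Figure D5:**
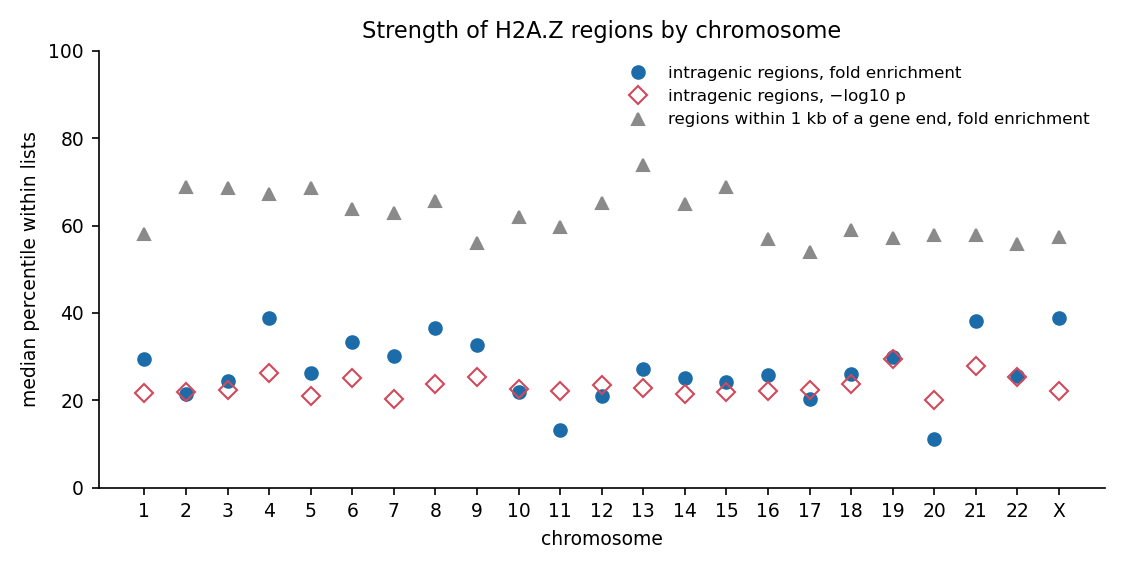
Median over regions of the mean percentile within lists (y axis) by chromosome (x axis, those with at least 50 intragenic regions), for intragenic regions by fold enrichment and by −log10 p and for gene-end regions by fold enrichment. Chromosomes 11 and 20 have the lowest intragenic fold values (13.1 and 11.2), and their values by −log10 p are 22.2 and 20.1.

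The low values were not spread evenly along these chromosomes. On chromosome 20, bins of 10 Mb had median fold percentiles of 17.3 to 31.2 up to 30 Mb and of 5.25 to 8.19 from 30 Mb on. On chromosome 11, the 5 bins from 70 to 120 Mb had medians of 5.41 to 7.39 and the bins below 70 Mb of 11.7 to 41.4. By −log10 p, the bins from 30 Mb on chromosome 20 had medians of 17.6 to 22.5, and those from 70 to 120 Mb on chromosome 11 had 15.7 to 23.5. No control track is used here, and the sources used here do not say what the deposited fold is measured against, so the part of local background in these values was not tested.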

How the data were processed

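Flag ChIP-seq intervals were deposited as 1 list per sample, for 8 samples in 4 groups of 2. The submitters' processing notes name hg38, BWA and deepTools. No peak caller, control or use of the spike-in is named in these sources. The deposited score is a whole number, and the deposited fold enrichment is a ratio whose reference is not given. The deposited −log10 p-values and −log10 q-values are on a −log10 scale, and the deposited summit column is an offset in bp. These columns are the authors' own values per interval and were used only to rank intervals within a list. They give no depth, and so no counting error or detection limit.

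Lists were shortened to the number of intervals in the shortest, by −log10 p, and overlapping intervals were merged over lists. Genes were the 20037 protein-coding genes of RefSeq GRCh38.p14, and transcript starts came from a RefSeq table of 300-base windows. Regions were counted as present or absent in each list, and per-list shares, percentiles and widths were compared by 2-sided exact permutation tests. For regions of all 8 lists, 4 group means were estimated with limma 3.58.1 under R 4.3.3, with Benjamini-Hochberg adjustment over all 16878 regions. The fit was tested on simulated data. Regions named in the text were the 10 strongest of all 8 lists, the 10 hosts with most regions, up to 5 of each one-sided set by state or isoform and up to 3 by pair of groups (by mean percentile over the lists holding the region), those of lowest p for each limma contrast, up to 2 hosts of each gene list, and the regions on both sides of the distance limit. The regions and the gene lists were chosen with earlier results of these data known. Alternatives were whole lists, lists 50% as long or of equal covered length, distances of 5 and 20 kb, merging over gaps of 500 bp, ranks by −log10 p, a replicate block, a run block and a block by isoform and experiment added after seeing the data, and each list left out. Samples without a peak list were not analysed here, and 1 of the gene lists is not reported here.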

Additional observations from a re-analysis of the deposited data

Results flagged for a closer look

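Over the named regions of all 8 lists and the list-level measures, 86 groups of 4 values were examined, and in 5 of them 1 list stood far from the other 3; chance alone gives about 1 in 20. In TP53BP1 the H2A.Z.2 Exp2 list had a percentile of 93.5, the lowest of the Sc lists. In PRKAR1A the H2A.Z.1 Exp1 list had 98.7, the highest of the Sc lists. In ERBB2 the H2A.Z.1 Exp2 list had 46.7, the lowest of the Pc lists, where the others lay between 83.9 and 90.6. In RET the H2A.Z.1 Exp2 list had 58.5, the lowest of the Sc lists. In COL4A1 the H2A.Z.1 Exp1 list had 20.8, the lowest of the Sc lists. The state difference of the median percentile went opposite ways in the isoforms: it was 0.167 and 1.54 for H2A.Z.1 and −0.829 and −1.19 for H2A.Z.2, so the H2A.Z.2 mean minus the H2A.Z.1 mean was −1.86 points. That difference was not tested.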

How the results depend on the processing

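The results that compare lists by presence depended on where the lists were cut; beyond what each setting changes by construction, the cause was not tested. With whole lists, 9.30% of intragenic regions were in all 8. Listed in Pc only were 114, in Sc only 11 and in H2A.Z.1 only 50. In both Pc lists and no Sc list of H2A.Z.1 were 1635. In subconfluent cells 40 were in H2A.Z.2 only and 484 in H2A.Z.1 only, and in postconfluent cells 15 and 1491. The differences in median percentile reversed to 0.924 (state) and −1.47 (isoform), and that in width between isoforms to 25 bp. With lists 50% as long, 23.7% were in all 8, and the counts fell to 8 (Pc), 8 (Sc) and 2 (H2A.Z.1), to 97 and 80 (H2A.Z.1, Pc and Sc), 60 and 76 (H2A.Z.2), 50 (H2A.Z.1 in Sc), and 33 and 64 (H2A.Z.2 and H2A.Z.1 in Pc). With equal covered length, where the lists differed in number of intervals and the shortest held 14209, 17.7% were in all 8. The counts were 0 (Pc), 6 (H2A.Z.2) and 1 (H2A.Z.1), 46 (H2A.Z.1, Pc), 27 (H2A.Z.2, Pc), 118 and 10 (H2A.Z.2 and H2A.Z.1 in Sc), and 106 and 24 (the same in Pc). The list share reversed to −0.899 (state) and 0.943 (isoform), and the state difference in median percentile to 0.326.

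A distance of 5 kb put 21.4% in all 8 lists, as did merging over 500 bp (21.4%), where the H2A.Z.1 set held 6. A distance of 20 kb gave 18.8%, 144 regions for H2A.Z.2 in Pc, a state difference in percentile of 0.305 and an isoform difference of 1.09 that passed (exact permutation p = 0.0286). Ranks by −log10 p gave 1 limma call for state. Leaving out 1 list at a time leaves a group with 1 list, which fewer lists then define; for limma that lone list was assumed to vary like the other groups. The state difference in percentile then ranged from −0.431 to 0.274, and the share in all remaining lists from 21.3% to 23.01%. Counts ranged from 64 to 107 (Pc), 31 to 55 (Sc), 14 to 26 (H2A.Z.1) and 1 to 7 (H2A.Z.2). Within H2A.Z.1 they ranged from 372 to 989 (Pc) and 200 to 819 (Sc), and within H2A.Z.2 from 220 to 885 and 147 to 838. In Sc they ranged from 63 to 754 (H2A.Z.2) and 159 to 819 (H2A.Z.1), and in Pc from 66 to 599 and 220 to 820. The other values were mean percentiles, presence and limma estimates of single regions, and counts of regions in the hosts with the most. Of these, 1030 stayed the same by the limit set for their kind and 177 did not. None reversed, which a mean percentile or a host count could not do by these limits.

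Same-numbered samples deviated together with correlations of 0.196 (H2A.Z.1, Sc with Pc) and 0.157 (H2A.Z.2), and of −0.0376 to 0.0777 across isoforms, so the experiment numbers were not taken to pair all samples. With a replicate block the exact permutation p, which cannot go below 0.0556, was 0.222 (state) and 0.0556 (isoform) for the list share, for the percentile 0.833 and 0.167 and for the width 0.5 and 0.167, with unchanged differences. With the Sc and Pc lists of 1 isoform and experiment as a pair, a replicate block chosen after seeing the data, the exact permutation p for state was 0.125 for the list share, the smallest that 4 pairs allow, 1 for the percentile and 0.375 for the width. The limma fits with the replicate block, or with a run block chosen after seeing the data, which for state amounts to those pairs, called 0 intragenic regions in all 3 contrasts. Over all 16878 regions they called 2 and 1 for state, against 0 without a block. Regions absent from a list can still carry some signal, since lists hold only what passed the authors' threshold. Counts for pairs of groups were not tested; with 2 lists a group an exact permutation p cannot go below 0.333.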
